A study of Mus musculus with 64 samples.

Results

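The 10 genes described here make, recycle, phosphorylate or use nicotinamide adenine dinucleotide (NAD) in the mouse heart. They were Nmrk2, Nampt, Nmnat1, Nmnat3, Nadk, Nnt, Nnmt, Cd38, Sirt3 and Parp1. They were taken from the expression table by symbol, 10 of its 30285 gene entries, from a list made with earlier results of these data known. The measurement was FPKM, the number of sequenced fragments scaled to transcript length and to all mapped fragments of the library, so that levels can be set side by side between genes.

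RNA came from whole cardiac tissue of 64 male C57BL6 mice, 1 library per heart, operated at 3 to 4 months of age. The 4 conditions were wild-type sham (WTSH), knockout sham (KOSH), wild-type TAC (WTTAC) and knockout TAC (KOTAC). TAC is transverse aortic constriction, a ligature around the aorta that puts the heart under pressure overload, and sham mice had the same operation without the constriction. Tissue was collected at week 1, 2, 4 or 8 from the operation, with 4 hearts in each of the 16 groups. Knockout mice carried a loxP-flanked Ndufs4 and Cre recombinase under the αMHC promoter, so the deletion was made in cardiomyocytes. The labels call the other mice WT and do not say whether these carried Cre or loxP alleles. In bulk tissue, fewer cells of a type and less RNA per cell cannot be told apart.

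NAD accepts electrons from fuels and passes them to complex I of the respiratory chain, the complex to which the Ndufs4 protein belongs. It is also consumed by sirtuins, poly(ADP-ribose) polymerases and CD38, which release nicotinamide. Nicotinamide is returned to NAD by NAMPT, which makes nicotinamide mononucleotide, and the NMNAT enzymes complete the step. A second entry runs through the nicotinamide riboside kinases, of which NMRK2 is the form of striated muscle. NADK adds a phosphate to give NADP, and NNT couples the proton gradient of the inner mitochondrial membrane to the reduction of NADP.

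In mm9, Nmrk2 occupies bases 80660915 to 80664782 of chromosome 10 (minus strand) and Nampt bases 33505200 to 33538234 of chromosome 12 (plus strand). The stretches of 150 bases before their annotated starts are shown because both genes changed with TAC in opposite directions. They are from the RefSeq promoter set of GRCm38.p6, 5′ to 3′ on the strand of the gene, and each matched mm9 once. Capitals mark the letters TATAAA, the core of a TATA box, as well as the GC box core GGGCGG or its reverse complement.
Nmrk2, chr10:81202038-81202187 (GRCm38.p6, minus strand): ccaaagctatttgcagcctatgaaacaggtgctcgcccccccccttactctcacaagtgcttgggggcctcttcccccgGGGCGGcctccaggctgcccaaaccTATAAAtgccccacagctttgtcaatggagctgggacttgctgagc
Nampt, chr12:32820185-32820334 (GRCm38.p6, plus strand): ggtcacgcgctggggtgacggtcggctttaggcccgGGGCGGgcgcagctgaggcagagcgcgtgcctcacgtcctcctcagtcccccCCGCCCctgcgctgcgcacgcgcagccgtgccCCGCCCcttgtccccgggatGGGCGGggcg
The stretch before Nmrk2 held TATAAA at position -46 from the start, letters found in 12.4% of 32851 mouse promoters when both strands of 250 bases were searched. It held GGGCGG once. The 250 bases before Nampt held GGGCGG 5 times on either strand and no TATAAA, and 32.7% of promoters held GGGCGG at least once. The letters CACGTG, the core of the site that clock factors bind, were in neither, and 6.02% of promoters held them. Of the 10 genes, 8 had an entry in the promoter set.

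In sham hearts the 10 genes spanned a wide range of levels. Nnt was the most abundant, with a median of 149 FPKM in WTSH hearts, followed by Nampt with 38.4 FPKM and Sirt3 with 32.9 FPKM. Parp1, Nmnat1, Nadk and Nmnat3 had medians between 9.06 and 12.7 FPKM, and their ranges over hearts overlapped from each to the next. Cd38 had 4.40 FPKM. Nmrk2, with 2.06 FPKM, and Nnmt, with 1.80 FPKM, were the lowest, and their ranges also overlapped. The order of the medians was the same in KOSH hearts. In WTTAC hearts Nmrk2 rose from the ninth to the fourth place with a median of 20.8 FPKM, and in KOTAC hearts to the third with 28.2 FPKM.

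A limit of the libraries comes before the changes. In 4 libraries of week 2, those of hearts 3 and 4 of WTTAC and of KOTAC mice, longer transcripts had lower values: log2 levels changed by -0.133 to -0.105 with each doubling of transcript length, against -0.0477 and above in the other 60. The cut of -0.08 that sets these 4 libraries apart was chosen after the slopes were seen. FPKM values do not give depth, and the number of genes at 1 FPKM or more ranged from 11689 to 13101 over the libraries. The targeted gene Ndufs4 was at 20.3 to 43.8 FPKM in knockout hearts and at 59.0 to 188 FPKM in wild-type hearts, without overlap. Changes are differences of log2(FPKM + 1), averaged over the 4 weeks, and understate the change of low genes such as Nmrk2. They were tested with limma over 13653 genes, and a gene was called at a Benjamini-Hochberg adjusted p under 0.05. The median change over all of these genes was 0.14 in WTTAC vs. WTSH and 0.13 in KOTAC vs. KOSH, so that 80.4% and 77.4% of the called genes were higher. After median-of-ratios scaling, 49.9% and 49.7% were higher.

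After TAC, each of the 10 NAD genes was called in both genotypes, and the direction of each was the same in both. Nmrk2, Nadk, Nnmt and Cd38 rose, and Nampt, Nmnat1, Nmnat3, Nnt, Sirt3 and Parp1 fell. Of all genes tested, 59.9% were called in WTTAC vs. WTSH, with 48.2% higher and 11.7% lower. In KOTAC vs. KOSH, 62% were called, with 48% higher and 14% lower. A call by itself was therefore common, and the 4 rises of 10 were no larger a share than that of all genes, while 6 of 10 fell. After median-of-ratios scaling, 56.1% and 59.5% of all genes were called in the same comparisons, and 49.9% and 49.7% of these were higher. Falls were then a larger share of all genes than the 11.7% and 14% above, so the shares compare in this way only without scaling. The median change of the 10 genes was -0.26 in WTTAC vs. WTSH and -0.23 in KOTAC vs. KOSH. Each of the 10 kept its call and its direction in both comparisons under median-of-ratios scaling and under quantile normalization. In KOTAC vs. WTSH, where 60.7% of all genes were called, the same 4 genes were higher and the same 6 lower.

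**Figure D1:**
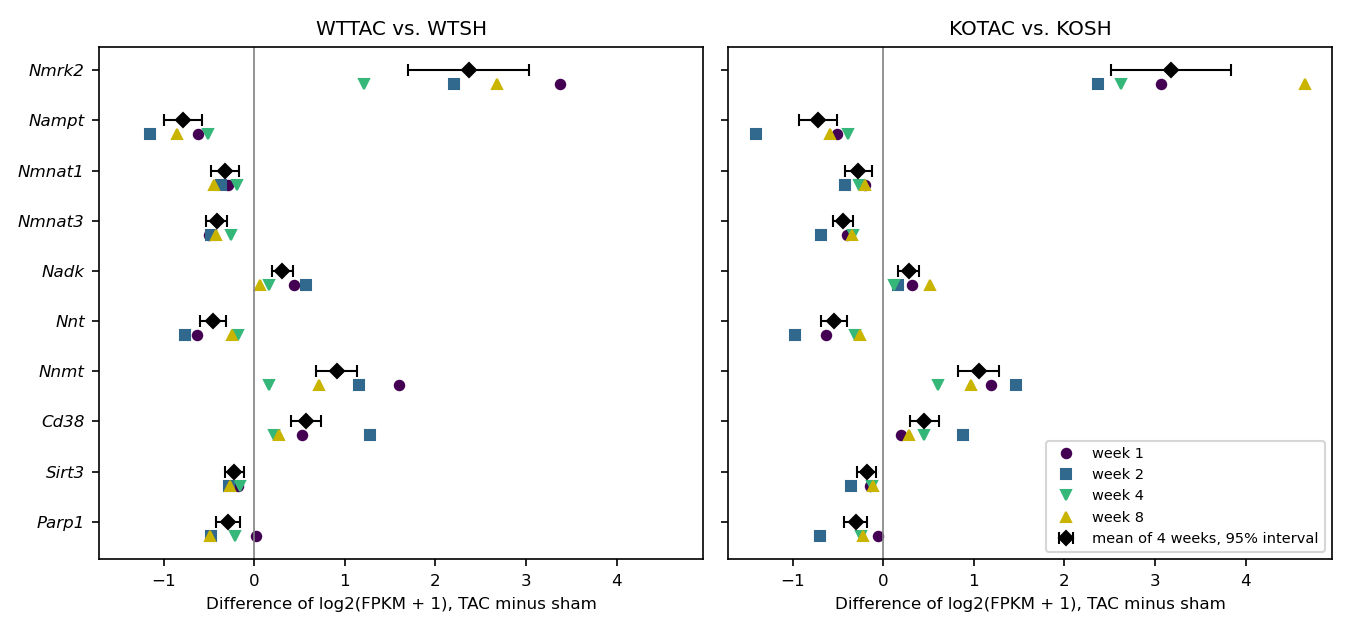
Changes after TAC of the 10 NAD genes in wild-type (left) and knockout (right) hearts, as the difference of log2(FPKM + 1) between TAC and sham hearts. Diamonds are means over the 4 weeks with 95% intervals from limma (n = 16 hearts per condition), and coloured symbols are the single weeks (n = 4 per group). Nmrk2 stands to the right of the other genes in both panels, with means of 2.37 and 3.18, and Nampt to the left, with -0.78 and -0.72.

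Of the salvage genes, Nmrk2 was low in sham hearts and high in most TAC hearts. In WTSH hearts it was at 2.28 ± 1.03 FPKM (SD, n = 16), between 0.857 and 4.66, and in WTTAC hearts at 21.6 ± 16.7 FPKM (SD, n = 16), between 2.16 and 59.0. KOSH hearts had 3.41 ± 3.87 FPKM (SD, n = 16), between 0.962 and 16.7, and KOTAC hearts had 49.4 ± 53.4 FPKM (SD, n = 16), between 7.37 and 206. The medians of TAC hearts were 10.1-fold and 11.9-fold those of sham hearts. Of the 16 WTTAC hearts, 13 lay above each WTSH heart, and of the 16 KOTAC hearts, 11 lay above each KOSH heart. For these and the other overlaps given below, the share of all genes that separate in the same way was not counted. On the log2 scale, WTTAC vs. WTSH gave 2.37 (standard error 0.33, limma adjusted p = 3.57e-08), the 27th largest rise of all genes tested. KOTAC vs. KOSH gave 3.18 (standard error 0.33, limma adjusted p = 1.54e-11), the 15th largest.

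The values of Nmrk2 in single hearts were as follows in the weeks after TAC. At week 1, the 4 WTTAC hearts had 21.7, 30.2, 35.4 and 39.0 FPKM and the 4 WTSH hearts 1.40, 1.67, 2.66 and 2.82 FPKM, so that the groups lay far apart. At week 2, the WTTAC hearts had 10.8, 25.1, 2.76 and 23.6 FPKM, and the lowest of these lay just above the highest WTSH heart, at 2.33 FPKM. At week 4, the WTTAC hearts had 11.3, 2.16, 10.9 and 6.33 FPKM and the WTSH hearts 3.22, 4.66, 1.68 and 0.857 FPKM, and the groups overlapped through heart 2. At week 8, the WTTAC hearts had 3.02, 19.8, 59.0 and 45.3 FPKM, and 1 of them lay below the highest WTSH heart, at 4.18 FPKM. The log2 changes of these weeks were 3.37, 2.21, 1.21 and 2.68, and that of week 4 was not called (adjusted p = 0.497 from limma).

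Knockout hearts reached the highest levels of Nmrk2 at week 8. The KOTAC hearts had 55.6, 15.2, 38.4 and 19.4 FPKM at week 1, and 30.0, 26.3, 13.4 and 20.4 FPKM at week 2. At week 4 they had 7.37, 85.1, 12.7 and 30.3 FPKM. At week 8 they had 14.0, 206, 104 and 112 FPKM, against 0.962, 3.13, 2.20 and 2.58 FPKM in KOSH hearts, and 3 of the 4 were higher than any heart of another condition. The log2 changes against KOSH hearts were 3.07, 2.37, 2.62 and 4.65, each called. Week by week the KOTAC hearts lay above the KOSH hearts at weeks 1 and 8 and overlapped with them at weeks 2 and 4, through KOSH heart 2 of week 2 (16.7 FPKM) and KOSH heart 1 of week 4 (8.03 FPKM). The change of the TAC effect on Nmrk2 between weeks was not called in either genotype (adjusted p = 0.218 in wild-type and 0.251 in knockout hearts from limma).

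**Figure D2:**
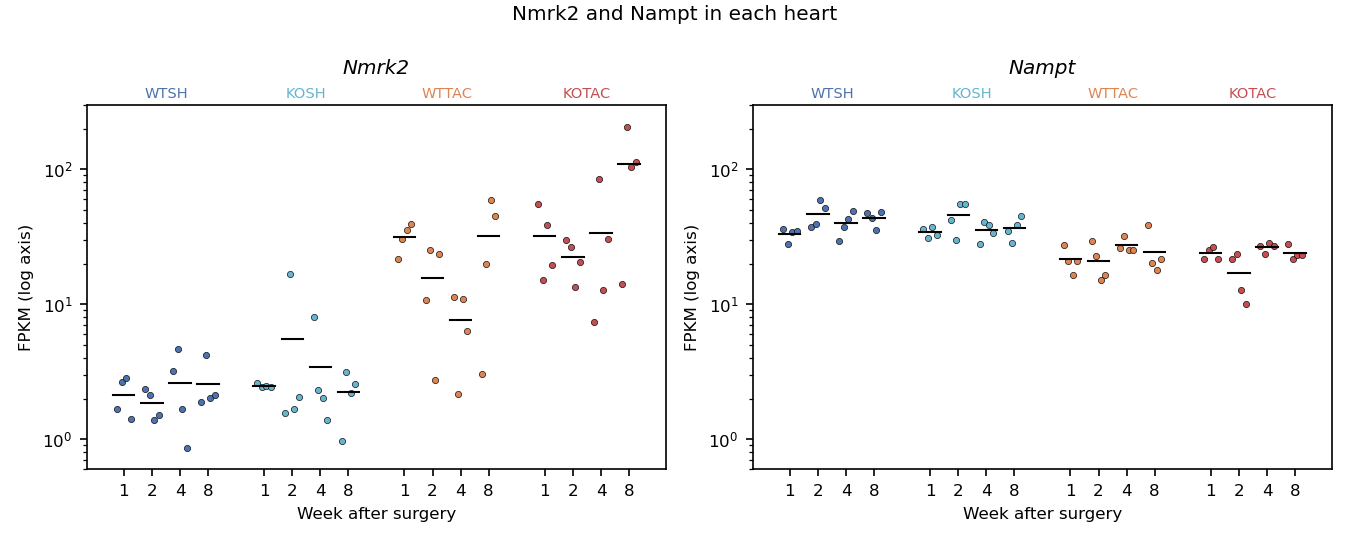
FPKM of Nmrk2 (left) and Nampt (right) in each heart, on log axes of the same range, by condition and week. Points are hearts (n = 4 per group) and bars are group means. Sham hearts sit between 0.857 and 16.7 FPKM for Nmrk2 and between 27.7 and 59.6 FPKM for Nampt, and the 3 highest Nmrk2 values are KOTAC hearts of week 8.

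Several hearts stood apart in Nmrk2, and 3 TAC hearts with low Nmrk2 were also low in markers of cardiac stress. WTTAC heart 2 of week 4, with 2.16 FPKM of Nmrk2, had 310 FPKM of Nppa, the atrial natriuretic peptide, and 19.7 FPKM of Postn, the matrix protein periostin. WTSH hearts had 68.8 to 400 FPKM of Nppa and 6.36 to 18.7 FPKM of Postn, so that this heart lay within or just above the sham range. WTTAC heart 3 of week 2, 1 of the libraries with a length bias, lay within it for both genes, with 393 and 16.6 FPKM. WTTAC heart 2 of week 8 had 1139 FPKM of Nppa and 39.3 FPKM of Postn, where the median WTTAC heart had 3451 and 168 FPKM. In the other direction, KOSH heart 2 of week 2 and KOSH heart 1 of week 4 had 7.92 and 6.36 FPKM of Mthfd2, a mitochondrial folate enzyme, against a KOSH median of 1.90 FPKM. These were the first and the third highest of the 16 KOSH hearts. The second, KOSH heart 3 of week 4, had 6.67 FPKM of Mthfd2 and 2.03 FPKM of Nmrk2. The stress markers did not stand apart in KOSH heart 2 of week 2, which had 402 FPKM of Nppa and 10.4 FPKM of Postn, where KOSH hearts had 123 to 1133 FPKM of Nppa and a median of 12.2 FPKM of Postn. KOSH heart 1 of week 4 had the highest Postn of the KOSH hearts, with 23.8 FPKM, the highest Gdf15, with 3.19 FPKM, and the second highest Nppa. The highest Nppa was that of KOSH heart 3 of week 1, which had 2.49 FPKM of Nmrk2. Without WTTAC heart 2 of weeks 4 and 8, an alternative chosen after seeing the data, each of the 10 genes stayed called in WTTAC vs. WTSH.

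Nampt, the rate-limiting enzyme of nicotinamide salvage, moved the other way. WTSH hearts had 40.8 ± 8.57 FPKM of Nampt (SD, n = 16), WTTAC hearts 23.5 ± 6.28 FPKM (SD, n = 16), KOSH hearts 37.9 ± 8.42 FPKM (SD, n = 16) and KOTAC hearts 22.8 ± 5.04 FPKM (SD, n = 16). Of the 16 TAC hearts of each genotype, 13 WTTAC and 14 KOTAC hearts lay below each sham heart of their genotype. On the log2 scale, WTTAC vs. WTSH gave -0.78 (standard error 0.10, limma adjusted p = 1.12e-08), the 97th largest fall of all genes tested. KOTAC vs. KOSH gave -0.72 (standard error 0.10, limma adjusted p = 5.18e-08).

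At week 1, Nampt was at 27.5, 21.0, 16.4 and 21.0 FPKM in WTTAC hearts against 36.0, 27.7, 34.1 and 34.6 FPKM in WTSH hearts, without overlap. At week 4 the WTTAC hearts had 26.1, 32.2, 25.3 and 25.2 FPKM and the WTSH hearts 29.5, 37.6, 42.5 and 49.2 FPKM. Heart 2, the one with sham-like Nmrk2, was the highest of these WTTAC hearts and lay inside the sham range. At week 8 the WTTAC hearts had 38.4, 20.2, 17.9 and 21.6 FPKM, and the highest was again the heart with low Nmrk2. The lowest Nampt values were those of week 2, 15.1 and 16.3 FPKM in WTTAC and 12.8 and 10.1 FPKM in KOTAC hearts, each in a library with a length bias. The other TAC hearts of week 2 had 21.7 to 29.2 FPKM. Without the 4 libraries, the log2 change of Nampt at week 2 was -0.81 in place of -1.15 in wild-type hearts and -0.94 in place of -1.41 in knockout hearts, and both stayed called (adjusted p = 0.00588 and 0.00182 from limma). Nampt is an output of the circadian clock in mice, and the time of day of harvest was not given in the sources used here. Of 15 clock genes, 3 were higher and 9 lower in WTTAC vs. WTSH, where 48.2% and 11.7% of all genes were. In KOTAC vs. KOSH, 2 were higher and 3 lower, where 48% and 14% of all genes were. Hlf, a clock-controlled transcription factor, had -0.97 and -0.70, and their part in the fall of Nampt was not tested.

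Set against each other in the same heart, Nmrk2 and Nampt approached and crossed after TAC. Nampt exceeded Nmrk2 in each of the 32 sham hearts, and Nmrk2 exceeded Nampt in 18 of the 32 TAC hearts, 7 of 16 WTTAC and 11 of 16 KOTAC hearts. The ratio of Nmrk2 to Nampt FPKM had a median of 0.0501 in WTSH hearts, between 0.0174 and 0.124, and 0.0574 in KOSH hearts, between 0.0275 and 0.560. It was 0.886 in WTTAC hearts, between 0.0671 and 3.29, and 1.25 in KOTAC hearts, between 0.273 and 9.60. By week, Nmrk2 was the higher in 3, 2, 0 and 2 of 4 WTTAC hearts and in 2, 4, 2 and 3 of 4 KOTAC hearts at weeks 1, 2, 4 and 8. Those of week 2 include WTTAC heart 4 and KOTAC hearts 3 and 4, with ratios of 1.44, 1.04 and 2.02, in libraries with a length bias. WTTAC heart 3, the remaining library with this bias, had 0.183. The annotated transcript of Nampt has 4547 bases and that of Nmrk2 1840 bases.

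**Figure D3:**
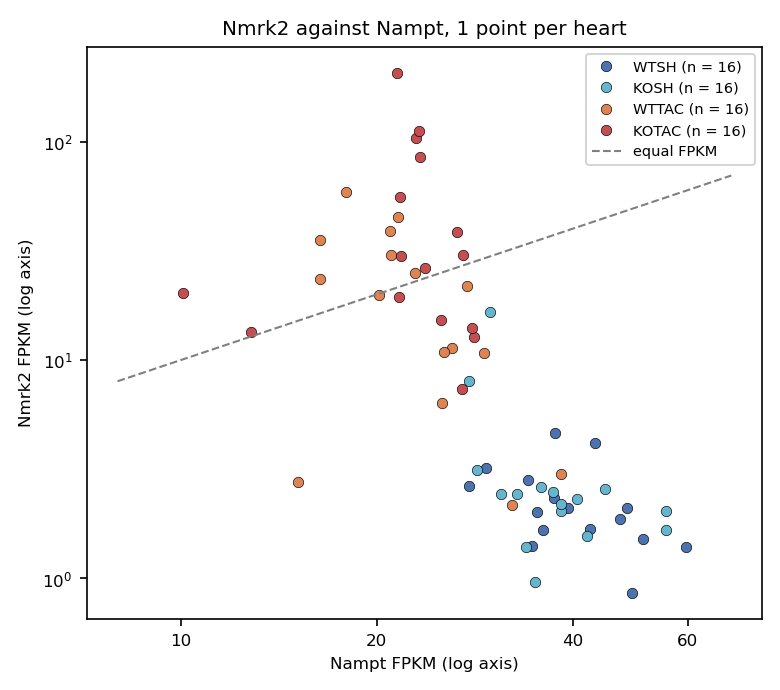
FPKM of Nmrk2 against FPKM of Nampt, both on log axes, with 1 point for each of the 64 hearts and a dashed line where both are equal. The 32 sham hearts lie below the line, and 18 of the 32 TAC hearts lie above it. These 18 include WTTAC heart 4 and KOTAC hearts 3 and 4 of week 2, in libraries with a length bias.

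The difference of log2(FPKM + 1) between Nmrk2 and Nampt was tested by permuting the condition within weeks. It rose by 3.15 (standard error 0.39) in WTTAC vs. WTSH and by 3.90 (standard error 0.41) in KOTAC vs. KOSH, each with a two-sided permutation p of 1e-05, the smallest that 100000 permutations can give. Both rises were seen at 4 of 4 weeks. Without the 4 libraries with a length bias they were 3.17 and 3.87, each again with a permutation p of 1e-05. The exact permutation test of 4 against 4 hearts, whose smallest p is 0.0286, reached it at weeks 1 and 2 in wild-type hearts and at weeks 1, 2 and 8 in knockout hearts. At the other weeks the exact p was 0.0857 (week 4) and 0.0571 (week 8) in wild-type and 0.0571 (week 4) in knockout hearts. Adjusted over the 16 weekly tests none was under 0.05, the smallest being an exact permutation p of 0.0914. Between KOTAC and WTTAC hearts the difference was higher in the knockout by 1.08 (standard error 0.48, permutation p = 0.0297, adjusted over the 4 comparisons 0.0395), at 3 of 4 weeks. It was 1.03 (permutation p = 0.0425) without the 4 libraries with a length bias. This difference rested on few hearts: it was 0.69 (permutation p = 0.111) without WTTAC heart 2 of weeks 4 and 8, and 1.06 (permutation p = 0.0932) without week 2. Leaving out any 1 of 6 hearts also took the permutation p above 0.05, as KOTAC heart 3 of week 8 did (0.95, permutation p = 0.0683). Between KOSH and WTSH hearts the difference was 0.33 (standard error 0.31, permutation p = 0.297).

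Within WTSH, KOSH and WTTAC, over the 16 hearts of each, hearts with more Nmrk2 tended to have less Nampt. In KOTAC hearts Pearson's r showed no such tendency, and no relation passed the adjustment over the 4 conditions. Pearson's r was -0.46 (permutation p = 0.0752) and Spearman's rho -0.48 (permutation p = 0.0617) in WTSH hearts, and -0.49 (permutation p = 0.0510) and -0.51 (permutation p = 0.0452) in KOSH hearts. In WTTAC hearts they were -0.50 (permutation p = 0.0494) and -0.48 (permutation p = 0.0614), and in KOTAC hearts 0.035 (permutation p = 0.906) and -0.32 (permutation p = 0.219). The smallest p adjusted over the 4 conditions was 0.1003 for r and 0.0823 for rho. Without the 2 hearts farthest from the median of Nmrk2, r was -0.68, -0.23, -0.80 and 0.043 in WTSH, KOSH, WTTAC and KOTAC hearts. After removal of week means it was -0.57, -0.70, -0.47 and -0.15. The r of KOSH hearts was smaller and that of WTTAC hearts larger in size without those 2 hearts.

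Among the genes that followed Nmrk2 most closely over the 64 hearts were Gdf6, a growth factor of the bone morphogenetic protein family (r = 0.94), Pfkp, the platelet form of phosphofructokinase (0.93), Synpo2l, an actin-associated protein of striated muscle (0.93), and 1500009L16Rik (0.92). The most opposed were Ces1d (-0.91), a carboxylesterase, Hopx (-0.89), a cardiac homeodomain protein, Acaa2 (-0.89), the last enzyme of beta-oxidation, Ttll1 (-0.89) and Ift81 (-0.89). For Nampt the closest were Gm6781 (0.94), Dhdh (0.93), Pank1 (0.92), which starts the synthesis of coenzyme A, Pdk2 (0.92), a kinase of pyruvate dehydrogenase, and Ldhd (0.92), a lactate dehydrogenase of mitochondria. Gm6781 is annotated as a pseudogene, and no window of 50 bases of the Nampt transcript was found in it. The most opposed to Nampt were Sfxn3 (-0.88), Fxyd5 (-0.87), Adam15 (-0.86), S100a6 (-0.86) and Elk3 (-0.85). These correlations are across hearts of all conditions, share the split between TAC and sham, and are given as a description. Between Nmrk2 and Nampt themselves r was -0.71 over the 64 hearts.

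The enzymes that finish NAD, Nmnat1 of the nucleus and Nmnat3 of mitochondria, fell. Nmnat3 was at 9.18 ± 1.00 FPKM (SD, n = 16) in WTSH, 6.68 ± 1.25 FPKM in WTTAC, 8.99 ± 0.81 FPKM in KOSH and 6.41 ± 1.14 FPKM in KOTAC hearts (SD, n = 16 each). In knockout hearts, 15 of 16 KOTAC hearts lay below each KOSH heart, as for Nnt, and the groups did not overlap at any of the 4 weeks. Its log2 change was -0.42 (standard error 0.056) in WTTAC vs. WTSH and -0.44 (standard error 0.056) in KOTAC vs. KOSH. Nmnat1 had -0.32 (standard error 0.076) and -0.27 (standard error 0.076), and TAC and sham hearts overlapped at each week in both genotypes. At week 2, the TAC libraries with a length bias had 4.99 to 6.33 FPKM of Nmnat1 and the other TAC hearts 9.36 to 11.2 FPKM. Without those libraries the change of Nmnat1 at week 2 was 0.011 in wild-type (adjusted p = 0.969 from limma) and -0.060 in knockout hearts (adjusted p = 0.809 from limma), where it had been -0.37 and -0.42 and called. Its averaged change stayed called without them, with -0.23 and -0.18.

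Of the genes of NADP, Nadk rose and Nnt fell. Nadk, the cytosolic NAD kinase, was at 9.74 ± 1.14 FPKM (SD, n = 16) in WTSH and 12.4 ± 2.15 FPKM (SD, n = 16) in WTTAC hearts, and at 9.49 ± 1.15 FPKM (SD, n = 16) in KOSH and 11.8 ± 1.62 FPKM (SD, n = 16) in KOTAC hearts. Its log2 change of 0.31 (standard error 0.057) in wild-type hearts was largest at weeks 1 and 2, with 0.44 and 0.57, and was 0.16 and 0.062 at weeks 4 and 8, not called (adjusted p = 0.641 and 0.788 from limma). After median-of-ratios scaling these weekly changes were 0.071, 0.37, 0.14 and 0.010 at weeks 1, 2, 4 and 8. Only that of week 2 was then called (adjusted p = 0.00176 from limma), and that of week 1 was not (adjusted p = 0.590). In knockout hearts, with 0.28 (standard error 0.057), the largest was that of week 8, with 0.52, or 0.28 after median-of-ratios scaling. Under median-of-ratios scaling, which lowers the changes after TAC, Nadk kept 0.15 and 0.12 and stayed called (adjusted p = 0.00831 and 0.0267 from limma).

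Nnt is the most abundant of the 10 genes. The C57BL/6J substrain carries a deletion within this gene, and the labels give the strain as C57BL6 without a substrain. Nnt was at 150 ± 17.1 FPKM (SD, n = 16) in WTSH and 153 ± 9.03 FPKM (SD, n = 16) in KOSH hearts, so that transcripts of the gene were plentiful, while the table does not resolve exons. It was at 112 ± 26.7 FPKM (SD, n = 16) in WTTAC and 108 ± 23.4 FPKM (SD, n = 16) in KOTAC hearts. At week 1, WTTAC hearts had 94.6, 95.2, 69.2 and 102 FPKM against 141, 125, 145 and 148 FPKM in WTSH hearts. At week 8 they had 142, 124, 133 and 122 FPKM against 150, 157, 162 and 149 FPKM. The groups were apart at both weeks, and the gap was narrower at week 8. The log2 change was -0.46 (standard error 0.074) in WTTAC vs. WTSH, with -0.64 and -0.76 at weeks 1 and 2, and -0.17 and -0.25 at weeks 4 and 8, which were not called (adjusted p = 0.716 and 0.274 from limma). In KOTAC vs. KOSH it was -0.54 (standard error 0.074), and the groups did not overlap at any week. Without the 4 libraries with a length bias, the change at week 2 was -0.40 in wild-type hearts, smaller than that of week 1, and -0.58 in place of -0.97 in knockout hearts, both called (adjusted p = 0.0129 and 0.000681 from limma).

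The genes that use NAD or draw off its precursor went both ways. Nnmt, which methylates nicotinamide and so takes it out of salvage, rose by 0.91 (standard error 0.11) in WTTAC vs. WTSH and 1.06 (standard error 0.11) in KOTAC vs. KOSH. It was at 1.82 ± 0.46 FPKM (SD, n = 16) in WTSH and 4.69 ± 2.51 FPKM (SD, n = 16) in WTTAC hearts. At week 1, WTTAC hearts had 8.11, 9.18, 9.62 and 3.83 FPKM against 1.90, 2.24, 1.82 and 1.12 FPKM in WTSH hearts, and at week 4 they had 3.20, 1.62, 2.75 and 3.06 FPKM against 1.96, 2.91, 1.77 and 2.30 FPKM. The week 4 groups overlapped, and the lowest of these TAC hearts was again heart 2. In knockout hearts the range was 1.10 to 2.46 FPKM in sham and 2.59 to 8.56 FPKM in TAC hearts, so that the 16 KOTAC hearts lay above each of the 16 KOSH hearts. No other member did so, while how many of all genes do was not counted.

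Cd38, an ectoenzyme that splits NAD, rose by 0.57 (standard error 0.080) in WTTAC vs. WTSH and 0.45 (standard error 0.080) in KOTAC vs. KOSH. Its highest values, 13.0 and 13.7 FPKM in WTTAC and 10.9 and 10.9 FPKM in KOTAC hearts, were in the 4 libraries with a length bias. The other TAC hearts of week 2 had 6.38 to 8.38 FPKM. Without these libraries the averaged changes were 0.49 and 0.37 and stayed called. Cd38 is found on immune and endothelial cells as well as on cardiomyocytes, and Nnmt is well known from fat and fibroblasts. Markers of other cells moved with TAC: 8 of 8 fibroblast markers, 7 of 7 macrophage and monocyte markers and 5 of 6 endothelial markers were higher in each genotype. Of all genes, 48.2% were higher in WTTAC vs. WTSH and 48% in KOTAC vs. KOSH. The summed FPKM of the fibroblast markers was 234 to 432 in WTSH and 364 to 3386 in WTTAC hearts, and 225 to 398 in KOSH and 677 to 2618 in KOTAC hearts. That of the macrophage and monocyte markers was 95.9 to 208 in WTSH and 103 to 665 in WTTAC hearts, and 89.6 to 160 in KOSH and 132 to 452 in KOTAC hearts. That of the endothelial markers was 184 to 293 in WTSH and 209 to 577 in WTTAC hearts, and 178 to 246 in KOSH and 208 to 505 in KOTAC hearts. No marker of these lists had a median of 0 in any condition. Of 8 cardiomyocyte markers, 1 was higher and 3 lower in each genotype, and the summed FPKM was 26436 to 35368 in WTSH and 24676 to 34763 in WTTAC hearts, and 25308 to 30842 in KOSH and 23673 to 31083 in KOTAC hearts. After median-of-ratios scaling, 0 of the 8 were higher and 5 lower in each genotype, and of the 6 endothelial markers 4 were higher in WTTAC vs. WTSH, while 2 were higher and 1 lower in KOTAC vs. KOSH. Of the markers tested in WTTAC vs. WTSH, 4 of 4 of proliferating cells, 3 of 5 of smooth muscle and pericytes, 2 of 3 of lymphocytes and 0 of 2 of adipocytes were higher, and of 5 skeletal muscle markers 1 was higher and 2 were lower. The part of these cells in the changes of the NAD genes was not tested.

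Sirt3, the main deacetylase of mitochondria, fell by little. It was at 33.9 ± 3.95 FPKM (SD, n = 16) in WTSH and 29.0 ± 4.06 FPKM (SD, n = 16) in WTTAC hearts, and at 34.2 ± 2.29 FPKM (SD, n = 16) in KOSH and 30.2 ± 3.87 FPKM (SD, n = 16) in KOTAC hearts. The changes were -0.22 (standard error 0.052) and -0.18 (standard error 0.052), the hearts overlapped at each week in wild-type mice, and week 2 was the one week called in either genotype. The size of this fall depended on the scaling: after median-of-ratios scaling it was -0.39 and -0.35, and weeks 1, 2 and 8 were called in both genotypes. Without the 4 libraries with a length bias Sirt3 was not called at week 2 (adjusted p = 0.501 in wild-type and 0.266 in knockout hearts from limma), while week 8 was called in wild-type hearts (adjusted p = 0.0247 from limma). Without week 2, an alternative chosen after seeing the data, Sirt3 was not called in KOTAC vs. KOSH (-0.13, adjusted p = 0.0508 from limma).

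Parp1, a nuclear enzyme that uses NAD when DNA is damaged, varied more after TAC than in sham hearts. It was at 11.7 to 13.4 FPKM in WTSH hearts and at 5.46 to 13.7 FPKM in WTTAC hearts. The coefficient of variation was 4.30% in WTSH and 8.02% in KOSH hearts, and 22.2% in WTTAC and 20.6% in KOTAC hearts. These values pool the hearts of all weeks, so those of TAC hearts include differences between weeks and the 4 libraries with a length bias. At week 1 its FPKM was not lower in TAC hearts: the WTTAC hearts had 11.4, 12.6, 13.7 and 13.2 FPKM, and the WTSH hearts 12.8, 11.7, 12.6 and 13.0 FPKM. The log2 change was 0.018 (adjusted p = 0.917 from limma). After median-of-ratios scaling it was -0.35 and after quantile normalization -0.37, both called (adjusted p = 0.0176 and 0.00831 from limma). At week 8 the WTTAC hearts had 10.3, 7.99, 7.83 and 8.41 FPKM against 12.8, 12.6, 11.8 and 12.8 FPKM, without overlap, and the change was -0.49 (adjusted p = 0.00627 from limma). In the 4 libraries with a length bias Parp1 was at 5.46 to 7.78 FPKM, where the other TAC hearts of week 2 had 9.12 to 12.2 FPKM. Without them the change at week 2 was -0.10 in wild-type hearts (adjusted p = 0.462 from limma) in place of -0.48, and -0.32 in knockout hearts (adjusted p = 0.00870 from limma) in place of -0.69. The averaged changes were -0.29 (standard error 0.066) and -0.31 (standard error 0.066), and -0.20 and -0.21 without these libraries, all called.

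**Figure D4:**
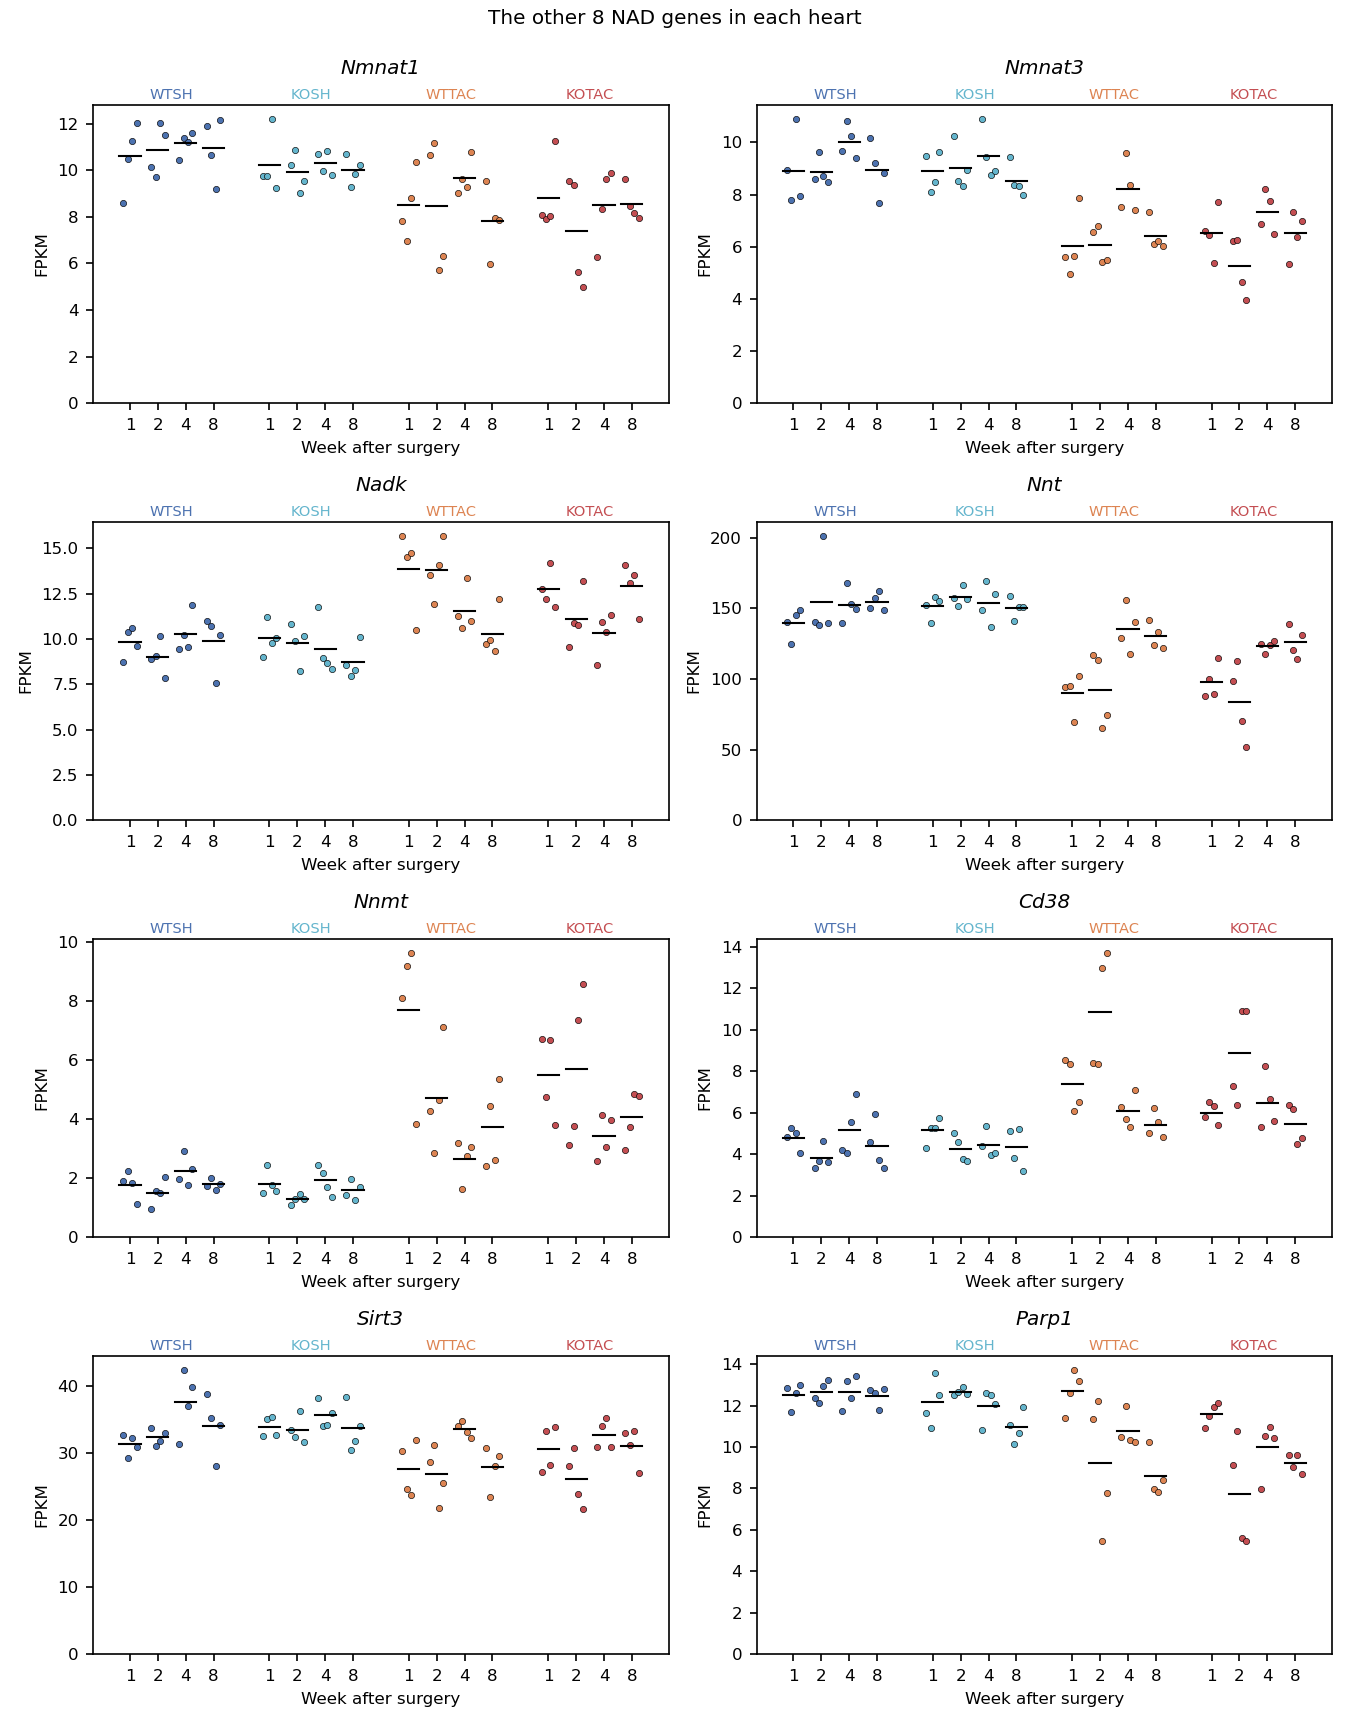
FPKM of the other 8 NAD genes in each heart by condition and week, on linear axes from 0. Points are hearts (n = 4 per group) and bars are group means. At week 2, 2 hearts of WTTAC and 2 of KOTAC, the libraries with a length bias, stand low for Nmnat1, Nnt and Parp1 (4.99 to 6.33, 52.1 to 74.1 and 5.46 to 7.78 FPKM) and high for Cd38.

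By week, the count called in wild-type hearts was highest at weeks 1 and 2, and that of week 2 included libraries with a length bias. Of the 10 genes, 7 were called at week 1, 10 at week 2, 0 at week 4 and 6 at week 8 in WTTAC vs. WTSH, where 56%, 46.4%, 0.212% and 16.4% of all genes were called. In KOTAC vs. KOSH the counts were 6, 9, 2 and 5, where 36.9%, 42.4%, 10.4% and 40.2% of all genes were called. The 5 at week 8 became 9 under either scaling, with Nmnat1, Nnt, Sirt3 and Parp1 added, where 29.6% of all genes were called after median-of-ratios scaling. In WTTAC vs. WTSH at week 1, either scaling took out Nadk and Cd38 and added Nmnat1, Sirt3 and Parp1. Of all genes, 42.2% were called at that week after median-of-ratios scaling and 44.7% after quantile normalization. The 2 genes called at week 4 in knockout hearts were Nmrk2 and Nmnat3. Without the libraries with a length bias, 7 of 10 were called at week 2 in either genotype, where 24.2% (wild-type) and 20.2% (knockout) of all genes were called. In wild-type hearts Nmnat1 was then added at week 1 and Sirt3 at week 8 (adjusted p = 0.0231 and 0.0247 from limma). Of all genes, 63.6% were called there at week 1, 1.69% at week 4 and 24.0% at week 8, so that weeks 2 and 8 had similar shares. The count at week 4 in knockout hearts was then 6, where 18.7% of all genes were called. The change of the TAC effect between weeks was called for Nadk, Nnt, Nnmt and Cd38 in wild-type hearts (adjusted p = 0.0289, 0.0420, 0.00283 and 0.000830 from limma), where it was called for 38.3% of all genes. Which genes were called depended on the processing. Under median-of-ratios scaling and quantile normalization Nadk lost this call (adjusted p = 0.137 and 0.101 from limma) and Nmnat3 gained it (adjusted p = 0.0446 and 0.0289 from limma), and 21.2% and 22% of all genes were called. Nnt lost it without the filter on low values (adjusted p = 0.0620 from limma), and both Nadk and Nnt lost it without WTTAC heart 2 of weeks 4 and 8 (adjusted p = 0.0630 and 0.103 from limma). In knockout hearts it was called for 0 of the 10 genes by limma, where 2.96% of all genes were called. At an unadjusted p under 0.05, 4 of the 10 (Nampt, Nnt, Cd38 and Parp1) and 24.6% of all genes were past it there, and with array weights Nnt was called. Without the libraries with a length bias, Nadk lost this call in wild-type hearts (adjusted p = 0.0929 from limma) and Parp1 gained it (adjusted p = 0.00135 from limma). Single hearts moved these counts. In knockout hearts 4 genes (Nampt, Nnt, Cd38 and Parp1) were called without KOTAC heart 2 of week 2, 3 without KOTAC heart 1 or WTTAC heart 3 of week 2, and 1 without KOSH heart 2 of week 2. In wild-type hearts 2 (Nnmt and Cd38) stayed called without WTTAC heart 4 of week 2, WTSH heart 1 of week 8 or WTTAC heart 6 of week 8. Whether the wild-type and knockout courses differ was not tested.

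Loss of Ndufs4 alone moved none of the 10 genes past the test. In KOSH vs. WTSH, 0 of 10 were called by limma, where 0.0513% of all genes were called, and 0 of the 10 and 631 of all genes had an unadjusted p under 0.05. The 95% intervals of the log2 difference were -0.44 to 0.89 for Nmrk2, -0.31 to 0.11 for Nampt, -0.11 to 0.18 for Nnt and -0.086 to 0.12 for Sirt3. The interval of Nmrk2 is wide, and a difference of up to the size of its upper end cannot be told from 0 with these hearts.

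Between the genotypes after TAC, 0 of the 10 genes were called by limma in KOTAC vs. WTTAC, where 0.82% of all genes were called. Nmrk2, with an unadjusted p of 0.00299 from limma, was the 1 gene of the 10 with an unadjusted p under 0.05. Its log2 difference was 1.03 (standard error 0.33, adjusted p = 0.120 from limma), the ninth largest rise of all genes tested, with a 95% interval of 0.37 to 1.70. Its mean and median FPKM were higher in KOTAC than in WTTAC hearts at weeks 2, 4 and 8, while at week 1 the means were 32.2 and 31.6 FPKM and the medians 28.9 and 32.8 FPKM. The call depended on the fit: it was made with array weights (1.13, adjusted p = 0.0312 from limma), and without KOTAC heart 2 of week 8, the lowest KOTAC heart of that week (1.23, adjusted p = 0.0310 from limma). For the other 9 genes the differences lay between -0.11 (Cd38) and 0.058 (Nnmt). The interaction of genotype and TAC was called for 0 of the 10 genes by limma and for 0% of all genes, although 312 of these had an unadjusted p under 0.05 and 0 of the 10 did. That of Nmrk2 was 0.81 (standard error 0.47), with a 95% interval of -0.13 to 1.75.

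Other genes of NAD metabolism moved in both directions. For comparison, 48.2% of all genes were higher and 11.7% lower in WTTAC vs. WTSH, and 48% and 14% in KOTAC vs. KOSH. Of 21 further genes of NAD synthesis and breakdown, 11 were expressed enough to be tested, and 4 were higher and 3 lower in WTTAC vs. WTSH and 4 higher and 5 lower in KOTAC vs. KOSH. After median-of-ratios scaling, 3 were higher and 5 lower in either comparison. Pnp, which releases nicotinamide from its riboside, had 0.62 and 0.54, Pnp2, a second phosphorylase gene beside it, 0.49 and 0.50, and Afmid, a formamidase of the kynurenine pathway, -0.46 and -0.62. Reads of Pnp and Pnp2, which are near-identical copies, may be divided between them. Nmrk1, the widely expressed relative of Nmrk2, was at 1.88 ± 0.44 FPKM (SD, n = 16) in WTSH and 2.04 ± 0.43 FPKM (SD, n = 16) in WTTAC hearts, and its change of 0.077 was not called (adjusted p = 0.290 from limma). Of 6 further sirtuins, 3 were higher and 1 lower in each genotype, and under median-of-ratios scaling 1 was higher and 2 lower. Sirt7 had 0.37 and 0.32, Sirt6 0.21 and 0.18 and Sirt5, the desuccinylase of mitochondria, -0.14 and -0.14. Sirt6 was not called under either scaling, nor Sirt7 in KOTAC vs. KOSH after quantile normalization (adjusted p = 0.121 from limma). Of 16 further poly(ADP-ribose) polymerases and their partners tested, 11 were higher and 1 lower in WTTAC vs. WTSH and 8 higher and 1 lower in KOTAC vs. KOSH. This count rests on the scaling: 4 were higher and 1 lower in WTTAC vs. WTSH after median-of-ratios scaling. Parp9 had 0.41 and 0.44, Parp10 0.36 and 0.31 and Macrod1, a hydrolase that removes ADP-ribose in mitochondria, -0.38 and -0.43. Parp10 was not called in KOTAC vs. KOSH after quantile normalization (adjusted p = 0.0742 from limma).

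Genes that reduce NADP or carry reducing equivalents fell in larger number. Of 24, 5 were higher and 14 lower in each genotype, and 4 were higher and 16 lower in WTTAC vs. WTSH after median-of-ratios scaling. The median change of the 24 was -0.20 in WTTAC vs. WTSH and -0.23 in KOTAC vs. KOSH, against 0.14 and 0.13 over all genes. Nadk2, the mitochondrial NAD kinase, listed as Nadkd1, fell by 0.76 and 0.93, while cytosolic Nadk rose. Pgd and G6pdx, the enzymes of the pentose phosphate pathway that reduce NADP, rose by 0.43 and 0.44 and by 0.47 and 0.50. Each of these 3 genes kept its call and its direction under both scalings.

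Some of the 10 genes share their place in the genome with others, and the sources used here do not state whether strand was used in counting. On mm9, 14.7% of the exonic bases of Nmrk2 are shared with exons of 2310050B05Rik on the opposite strand. The level of 2310050B05Rik was 25.5 ± 6.62 FPKM (SD, n = 16) in WTSH and 20.6 ± 5.07 FPKM (SD, n = 16) in WTTAC hearts. It was 23.9 ± 3.77 FPKM (SD, n = 16) in KOSH and 20.9 ± 7.61 FPKM (SD, n = 16) in KOTAC hearts. Its mean did not rise with that of Nmrk2, although the highest KOTAC heart had 42.4 FPKM and the highest KOSH heart 33.8 FPKM. Reads of it may be part of the low Nmrk2 values of sham hearts. Of the exonic bases of Sirt3, 9.68% are shared with Psmd13 and 3.89% with Ric8. Nampt shares no exonic base with Gdap10, which lies within its span.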

How the data were processed

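The FPKM values were made and deposited by the authors for 30285 gene entries in 64 hearts. Paired-end reads of 50 bases were checked with FastQC and aligned to mm9 with TopHat, and those that mapped to 1 place and had under 2 mismatches went to Cufflinks with the annotation of Ensembl 66. For the tools' versions and the use of strand, the sources used here give nothing. Depth per library is unknown from FPKM, and no count test was run.

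Genes with FPKM of 1 or more in at least 4 libraries were kept (13653), including each of the 10 NAD genes. log2(FPKM + 1) was fitted with limma 3.58.1 (R 4.3.3, trended variance) over 16 group means. Contrasts were averaged over weeks, and p-values were adjusted by Benjamini-Hochberg over all genes tested. The comparisons share groups. Nmrk2 minus Nampt was tested with 100000 permutations of the condition within weeks, or exactly at single weeks, in Python 3.11.15 (scipy 1.17.1, pandas 2.3.3, numpy 2.4.6), and plots were drawn with matplotlib 3.10.9. The fit was tested on simulated data.

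The 10 genes were each named. From each further list the 3 genes with the largest moderated t in WTTAC vs. WTSH were named, or fewer, with 5 genes at either end of likeness by Pearson's r of log2(FPKM + 1), of which 1 is not reported here. The members and lists were chosen with earlier results of these data known. Nppa, Postn, Mthfd2, Gdf15, Nmrk1 and the genes that overlap members were named after their values were seen. Positions were taken from the mm9 annotation, and promoters from RefSeq. Alternatives were pseudocount, filter, scaling, trend, array weights, samples fitted, a block for replicate number, and libraries left out.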

Additional observations from a re-analysis of the deposited data

Results flagged for a closer look

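For the 10 genes and Nmrk2 minus Nampt, each of the 16 groups of 4 hearts was searched for a heart far from the other 3. Of these 176 combinations, in which the same hearts recur, 11 held one, and chance flags about 1 in 20. Nmrk2 had such a heart in WTSH mice of week 8 (4.18 FPKM, the others 1.87 to 2.11), in KOSH mice of week 2 (16.7 FPKM, the others 1.56 to 2.05) and in KOSH mice of week 4 (8.03 FPKM, the others 1.39 to 2.31). The same KOSH hearts stood apart in Nmrk2 minus Nampt, with -0.80 (the others -4.41 to -4.07) and -1.67 (the others -3.87 to -3.65). Nampt had one in WTTAC mice of week 4 (32.2 FPKM, the others 25.2 to 26.1), and the same heart stood apart in Parp1 (12.0 FPKM, the others 10.2 to 10.5). Nmnat3 had one in WTTAC mice of week 8 (7.31 FPKM, the others 6.03 to 6.21), the heart with the lowest Nmrk2 of that group. Nmnat1 had one in KOSH mice of week 1 (12.2 FPKM, the others 9.27 to 9.77) and in KOTAC mice of week 1 (11.3 FPKM, the others 7.90 to 8.10), and Nnt in WTSH mice of week 2 (201 FPKM, the others 138 to 140).

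The TAC effect in wild-type hearts differed between weeks for Nadk (adjusted p = 0.0289 from limma), Nnt (adjusted p = 0.0420), Nnmt (adjusted p = 0.00283) and Cd38 (adjusted p = 0.000830). For Nadk, Nnt and Nnmt the effects were smaller at weeks 4 and 8 than at week 1, and for Cd38 the effect was largest at week 2, at which 2 of 4 WTTAC libraries had a length bias. Under either scaling Nadk was not called, and its effect was then larger at week 4 than at week 1 (0.14 and 0.071 after median-of-ratios scaling).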

How the results depend on the processing

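Of 122 checks of the main counts and differences, 116 gave a count within 1.5 times the one reported or a difference of the same direction and side of the threshold. Of 720 checks of single averaged fold changes, 716 kept direction and side, with none reversed. A count can hold other genes: the genes called were the same in 81 of 94 checks of counts, and in 3 of 11 for the change with week in wild-type hearts, where array weights gave 6 genes (Nmnat1 and Parp1 added) and the replicate block 3 (without Nnt). Of the 10 genes, 1 (Nmrk2) was called in KOTAC vs. WTTAC with array weights (1.13, adjusted p = 0.0312 from limma), and 1 with the replicate block (1.32, adjusted p = 0.0459 from limma). With array weights the change with week was called for 1 gene (Nnt) in knockout hearts, and with only the hearts compared it was called for 2 (Nnmt and Cd38) in wild-type hearts. Nmrk2 minus Nampt in KOTAC vs. WTTAC was 1.06 (permutation p = 0.0932) without week 2 and 0.69 (permutation p = 0.111) without WTTAC heart 2 of weeks 4 and 8, both chosen after seeing the data. Sirt3 lost its call without week 2 in KOTAC vs. KOSH (-0.13, adjusted p = 0.0508 from limma) and KOTAC vs. WTSH (-0.12, adjusted p = 0.0770 from limma). The cause of these moves was not tested.

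Leaving out each heart in turn gave 0 to 4 genes for the change with week in knockout and 2 to 5 in wild-type hearts, and 0 to 1 in KOTAC vs. WTTAC. Nmrk2 minus Nampt was then 0.81 to 1.29 in KOTAC vs. WTTAC (permutation p = 0.0079 to 0.0683), 3.00 to 3.41 in WTTAC vs. WTSH, 3.73 to 4.12 in KOTAC vs. KOSH and 0.11 to 0.41 in KOSH vs. WTSH. The count at week 4 in KOTAC vs. KOSH was 0 to 3. The 6 hearts that took its p above 0.05 in KOTAC vs. WTTAC were KOTAC heart 2 of week 4 and hearts 3, 4 and 5 of week 8, and WTTAC heart 2 of weeks 4 and 8.

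Of the weekly counts, KOTAC vs. KOSH at week 8 was 9 under either scaling and 8 with array weights, and at week 4 it was 7 with array weights and 1 without the filter, with the replicate block and with only the hearts compared. WTTAC vs. WTSH at week 4 was 3 with array weights, and at week 8 it was 0 with the replicate block. Over all genes, KOTAC vs. WTTAC gave 112 calls, 282 with array weights, 271 with the replicate block, 34 without the libraries with a length bias, 43 without the 2 WTTAC hearts, 8 without week 2 and 7 when the fit held only the hearts compared. The change with week in wild-type hearts gave 5229 calls, 2896 after median-of-ratios scaling and 2997 after quantile normalization. Of the calls in KOTAC vs. WTTAC 13.4% were higher, and 63.3% after median-of-ratios scaling.

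The labels do not tie equal replicate numbers together. Over 77 pairs with the same number within a week the deviations from group means had a median r of 0.015, with 24 pairs over 0.1, and over 307 pairs with different numbers -0.0048. With the replicate block, Nmrk2 minus Nampt was 2.67 in WTTAC vs. WTSH, 3.75 in KOTAC vs. KOSH, 0.33 in KOSH vs. WTSH and 1.29 in KOTAC vs. WTTAC. Depth is unknown, so no limit of detection can be given for low genes such as Nmrk2 and Nnmt in sham hearts.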
